A study of Mus musculus with 4 samples.

Results

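Of the 1585 reproducible LMO2 peaks listed for pro-B(+) cells, 101 peaks at 82 genes lay nearest to genes described as kinases, phosphatases, GTPases or their regulators. These are the peaks whose gene description in the deposited list contained the word kinase, phosphatase, GTPase or guanine nucleotide. Descriptions that also named a transcription factor, zinc finger or homeobox were to be left out, but no peak was lost in this way. The word kinase was found for 58 peaks, phosphatase for 24, GTPase for 13 and guanine nucleotide for 6, and 122 peaks of the list had no description and could not be selected. The selection reads the description only and uses no measured value. The list gives the gene with the nearest transcription start site (TSS), so a peak is assigned to a gene by position and not by a measured effect on that gene.

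Pro-B(+) cells are a line of Ebf1-deficient pro-B cells (strain C57BL6/J), established from fetal liver progenitors, that had kept the ability to enter the T-cell lineage. The cells were grown on OP9 stromal cells with 10 ng/ml each of stem cell factor (SCF), IL-7 and Flt3 ligand. Chromatin was fixed with disuccinimidyl glutarate and then formaldehyde, and 2 LMO2 ChIP samples, each made with a mixture of 3 anti-LMO2 antibodies, were sequenced beside 2 input samples of the same cells. All values therefore come from 1 cell line without Ebf1, and there is no sample without LMO2. The list holds 1 value per peak for both ChIP samples together, so neither the depth of each sample nor the spread between replicates can be computed from it, and no comparison below has a test over samples. Intervals are 95% intervals that cover the number of peaks counted only.

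LMO2 is a LIM-only protein that does not bind DNA itself but bridges DNA-binding partners, such as bHLH and GATA factors, in blood progenitors, and RUNX and ETS factors commonly occupy the same regulatory elements. Protein kinases add phosphate groups to other proteins and phosphatases take them off, whereas GTPases switch between an active GTP-bound and an inactive GDP-bound state. In lymphoid cells these switches carry the signals of cytokine receptors, antigen receptors and chemokine receptors into the cell.

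The peak sequences are shown for 7 named genes, each with its strongest peak, and for the Sik1 peak with the most bHLH words. They were picked from the named peaks because they hold RUNX, ETS or bHLH words, and they show how these words were combined. Each is a whole peak as listed, read 5′ to 3′ on the plus strand of GRCm38 (mm10). Capitals mark the RUNX word TGTGGT, the ETS word CTTCCT and the bHLH word CAGCTG, on either strand, so that ACCACA and AGGAAG are also in capitals. No annotated exon overlapped any of them.
Cdkn2b (chr4:89369184-89369390): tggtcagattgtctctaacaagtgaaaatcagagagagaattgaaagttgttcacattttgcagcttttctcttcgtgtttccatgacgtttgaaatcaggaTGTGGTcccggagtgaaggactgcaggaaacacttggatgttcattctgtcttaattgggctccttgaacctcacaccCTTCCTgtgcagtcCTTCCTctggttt
Gna15 (chr10:81519659-81519865): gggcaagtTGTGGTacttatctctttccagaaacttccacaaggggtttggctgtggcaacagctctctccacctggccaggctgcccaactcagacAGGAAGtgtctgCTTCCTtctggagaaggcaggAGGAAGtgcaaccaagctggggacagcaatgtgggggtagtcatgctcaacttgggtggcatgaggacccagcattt
Prkca (chr11:108223255-108223461): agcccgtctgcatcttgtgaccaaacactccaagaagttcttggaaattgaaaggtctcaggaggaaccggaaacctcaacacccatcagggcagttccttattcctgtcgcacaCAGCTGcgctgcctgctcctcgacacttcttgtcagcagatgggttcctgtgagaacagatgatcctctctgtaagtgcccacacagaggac
Stk17b (chr1:53791471-53791677): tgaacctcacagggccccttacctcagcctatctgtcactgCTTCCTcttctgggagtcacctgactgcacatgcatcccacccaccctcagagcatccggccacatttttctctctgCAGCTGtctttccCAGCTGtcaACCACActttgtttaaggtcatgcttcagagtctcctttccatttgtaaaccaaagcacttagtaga
Sik1 (chr17:31790843-31791049): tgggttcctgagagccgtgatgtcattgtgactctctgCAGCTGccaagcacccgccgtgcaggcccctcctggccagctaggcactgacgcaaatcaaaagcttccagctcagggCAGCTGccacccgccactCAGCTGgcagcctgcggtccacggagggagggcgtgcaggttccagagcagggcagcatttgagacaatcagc
Flt3 (chr5:147366458-147366664): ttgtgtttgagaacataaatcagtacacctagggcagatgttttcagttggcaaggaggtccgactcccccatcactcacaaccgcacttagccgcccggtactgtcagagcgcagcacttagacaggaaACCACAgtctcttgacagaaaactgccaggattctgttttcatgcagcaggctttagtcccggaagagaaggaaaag
Inpp5d (chr1:87640489-87640695): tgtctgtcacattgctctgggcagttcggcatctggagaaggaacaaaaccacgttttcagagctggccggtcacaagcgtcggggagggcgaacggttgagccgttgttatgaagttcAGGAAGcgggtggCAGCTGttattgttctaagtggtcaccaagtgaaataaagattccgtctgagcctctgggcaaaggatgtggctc
Arhgap25 (chr6:87541152-87541358): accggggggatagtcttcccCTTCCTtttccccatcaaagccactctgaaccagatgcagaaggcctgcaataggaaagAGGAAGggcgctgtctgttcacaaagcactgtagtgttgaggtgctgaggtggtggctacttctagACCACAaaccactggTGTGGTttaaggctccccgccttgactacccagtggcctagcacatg

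The Gna15 peak held 1 RUNX word and 3 ETS words, and the Arhgap25 peak 2 of each. By contrast, the Sik1 peak shown held 3 bHLH words and neither of the others, and the strongest Prkca peak only 1 bHLH word. The Stk17b peak held 1 RUNX word, 1 ETS word and 2 bHLH words. The Flt3 peak held 1 RUNX word and the Inpp5d peak 1 ETS and 1 bHLH word. These counts are of the exact words only. Other forms of the ETS site, such as CGGAAG in the Flt3 sequence and CGGAAA in the Prkca sequence, were not counted. With such forms included, an ETS word was present in 84.2% of the windows of the group, so these contrasts depend on the words chosen.

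Peak scores of the 101 peaks ran from 15, the lowest score in the list, to 114.5, with a median of 19.8 (interval 18.7 to 21.5) and quartiles of 17.2 and 29.2. The peak score is HOMER's normalized peak score as the authors deposited it, and a higher score stands for more ChIP reads at the peak. Over all 1585 peaks the median was 20.3 and the highest score 162.4. A score of at least 30 was reached by 24 of the 101 peaks (23.8%, Wilson interval 16.5 to 32.9) against 342 of all listed peaks (21.6%), a share near the background. As a group, the kinase and GTPase gene peaks were thus of ordinary height for this list, and the differences lay among the genes.

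**Figure D1:**
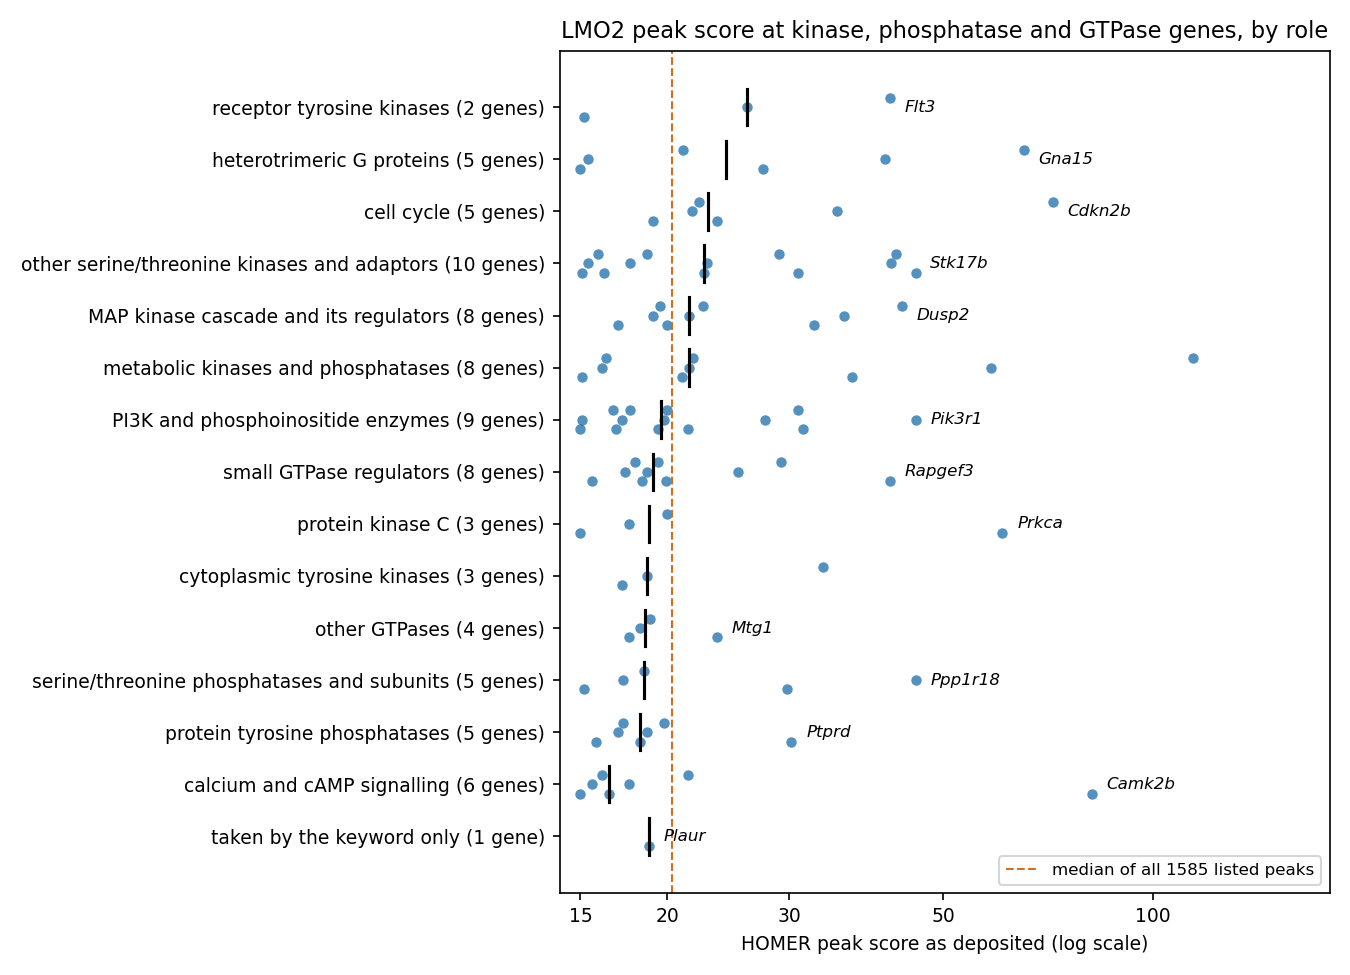
Peak score as deposited (horizontal axis, log scale) for each of the 101 LMO2 peaks at kinase, phosphatase and GTPase genes, grouped by the role of the gene (vertical axis, with the number of genes). Points are peaks, black lines are group medians, the dashed line is the median of all listed peaks (20.3), and the gene of the highest peak is named in most groups: most groups hold 1 or a few peaks far above their own median, such as Camk2b at 81.8 and Cdkn2b at 71.9.

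High scores were those of the peaks at Camk2b (81.8), a calcium/calmodulin-dependent kinase, at Cdkn2b (71.9), an inhibitor of cyclin-dependent kinases, at Gna15 (65.3), a G protein alpha subunit of blood cells, and at Prkca (60.8), a protein kinase C. The next scores were 58.6 at Ppa2, a mitochondrial pyrophosphatase, then 45.6 at each of Stk17b, Pik3r1 and Ppp1r18, and 43.5 at Dusp2. Not all of these belong to signalling. Ppa2 and Enpp6 were taken because phosphatase is part of the word pyrophosphatase, and Plaur (score 18.8) because its product is the receptor of urokinase.

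The Camk2b peak needs a separate statement. It lay in intron 3 of 20, inside an endogenous retroviral repeat (RLTR4_Mm), and every 50 bp word of the peak occurred more than once in the genome, with a median of 2 copies. Both Cks2 peaks (scores 23.6 and 22.2) lay in another such repeat (RLTR6_Mm), with a median of 49 copies per word. The Cks2 peaks also had the highest focus ratios of the group, 0.948 and 0.960. The part of repeated sequence in these values was not tested. Of all listed peaks, 190 had at least 50% repeated words, against these 3 of the 101.

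The focus ratio, which HOMER gives for each peak, is the share of its reads placed as those around 1 point of binding would be. It ran from 0.693 to 0.960 among the 101 peaks, with a median of 0.796 (interval 0.781 to 0.808), against 0.788 over the whole list, where it ran from 0.567 to 0.989. The lowest values were those of the weaker Prkca peak (0.693), Plaur (0.702) and Mknk2 (0.706). The highest outside repeats were those of Gnai2 (0.904) and G6pc3 (0.892). The 24 peaks with a score of at least 30 had a median focus ratio of 0.829 and the other 77 of 0.788. Across the 101 peaks, the Spearman correlation between score and focus ratio was 0.22, and across all 1585 peaks 0.253. Both numbers come from the same reads at each peak, and peaks are not replicates, so this is only a description.

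**Figure D2:**
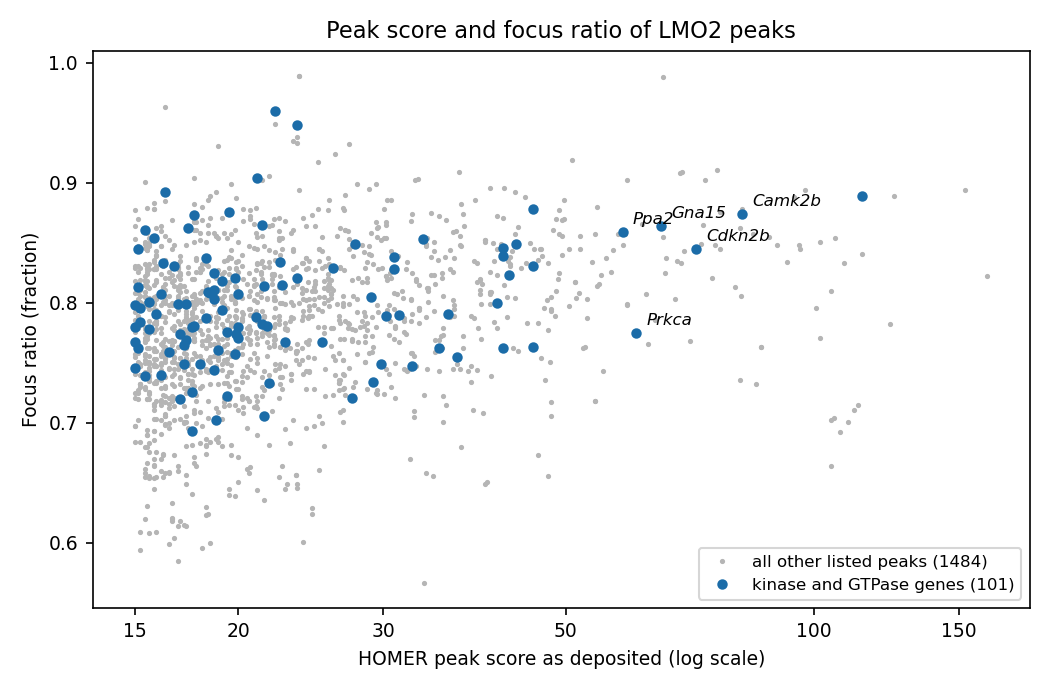
Peak score (horizontal axis, log scale) against focus ratio (vertical axis, a fraction) for the 101 peaks at kinase and GTPase genes (blue) and the other 1484 listed peaks (grey). The blue points spread over the same area as the grey ones, and of the 5 named peaks with high scores, 4 have focus ratios well above the median of 0.796, the exception being Prkca.

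Most of the 82 genes had a single peak. There were 65 genes with 1 peak, 15 with 2 and 2 with 3, so that 17 genes (20.7%) had 2 or more, against 225 of all 1167 gene names in the list (19.3%). Sik1, a salt-inducible kinase, was among the genes with 3 peaks. The Sik1 peaks had scores of 42.7, 29.0 and 17.7 and lay 20.0 kb, 64.9 kb and 21.2 kb downstream of the TSS. All of them lay beyond the end of the gene, which is 11.6 kb long.

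The 15 genes with 2 peaks were Prkca, Pik3r1, Gng2, Enpp6, Inpp5d, Kdr, Cks2, Arhgap24, Map3k8, Nek6, Ptprc, Ptpre, Iqgap1, Akap13 and Pik3ap1. In 3 of the 17 genes with 2 or more peaks the peaks spanned at most 2 kb, in 9 they spanned 2 to 20 kb, and in 5 more than 20 kb. The closest pair was that of Prkca, 613 bp apart in intron 2 of 16, with scores of 60.8 and 17.6. The farthest was that of Pik3r1, 411.76 kb apart on either side of the gene. In these 17 genes, all peaks of the gene held the RUNX word in 2 genes, the ETS word in 7 and the bHLH word in 1. The RUNX genes were Map3k8 and Cks2, and both Cks2 peaks lay in the same kind of repeat (RLTR6_Mm). Single windows of all listed peaks held these words in 54.9%, 51.4% and 33.8%. The same count was not made for the other listed genes with 2 or more peaks. Whether these counts differ from the rest of the list was therefore not tested. Another listed peak lay within 10 kb of 23 of the 101 peaks (22.8%, interval 15.7 to 31.9), compared with 315 of 1585 (19.9%), and in 18 of these 23 the neighbour belonged to the same gene.

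Intergenic sites and introns made up the same number of peaks, 46 each (45.5%, interval 36.2 to 55.2). In the whole list, 769 peaks were intergenic (48.5%) and 605 intronic (38.2%). The other 9 peaks were at 4 promoters, 3 coding exons, 1 5′ untranslated region and 1 transcription end site. Only 5 peaks lay within 1 kb of a TSS (4.95%, interval 2.13 to 11.1), against 167 of the other 1484 peaks (11.3%, interval 9.74 to 13). Between 1 and 10 kb the order was the other way round, with 35 peaks (34.7%, interval 26.1 to 44.3) against 335 (22.6%, interval 20.5 to 24.8). Within 5 kb there were 14 peaks against 323 of the other 1484, still the smaller share. The higher share thus came from peaks between 5 and 10 kb. From 10 to 50 kb the share was smaller again, 30.7% (interval 22.5 to 40.3) against 41.9% (interval 39.4 to 44.4). The median distance was 18.63 kb, against 18.73 kb for the other peaks. None of these differences was tested, since peaks are not replicates, and the distance classes were chosen with the values known.

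**Figure D3:**
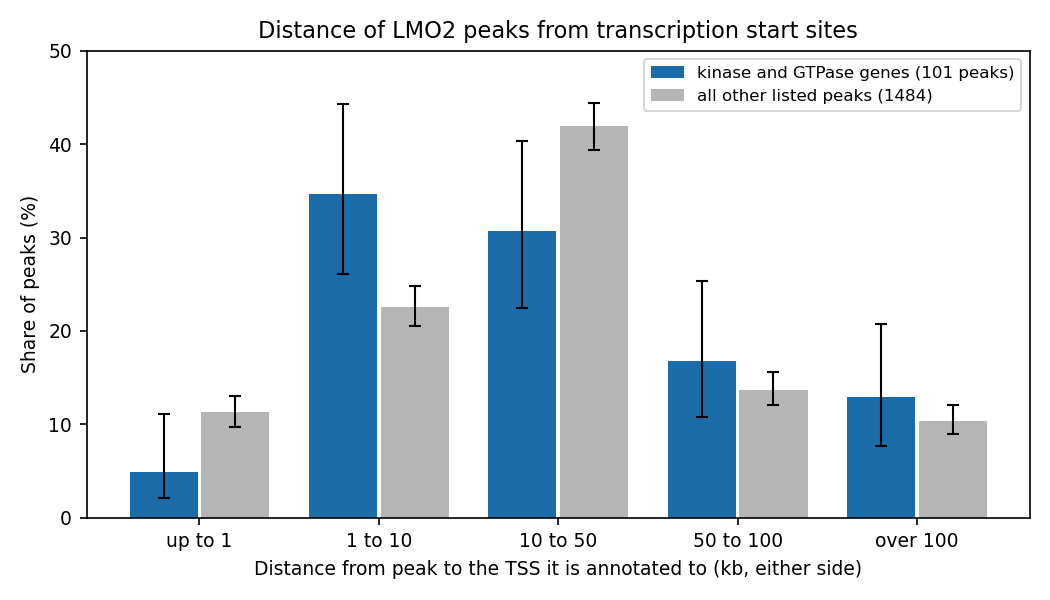
Share of peaks (vertical axis, %) by distance to the TSS they are annotated to (horizontal axis, kb), for the 101 peaks at kinase and GTPase genes (blue) and the other 1484 listed peaks (grey). Error bars are Wilson 95% intervals, which do not overlap between 1 and 10 kb (34.7% against 22.6%) and overlap in the other classes.

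The peaks nearest a TSS had scores on either side of the group median of 19.8. They lay 26 bp from the TSS of Ppp1r37 (score 18.5), 65 bp from that of Gne (15.1), 175 bp upstream of Akap13 (17.6) and 277 bp upstream of Iqgap2 (29.2). Ppp1r37 encodes a regulatory subunit of protein phosphatase 1 and Gne the key enzyme of sialic acid synthesis. Farther away were Mknk2 (1937 bp upstream, score 21.5), Srpk1 (3121 bp upstream, 15.4), Mtg1 (3327 bp upstream, 23.6), Map2k3 (3416 bp downstream, 36.0) and Ppp1r18 (3713 bp downstream, 45.6). None of the 24 peaks with a score of at least 30 lay within 1 kb of a TSS. This carries little weight, since only 5 of the 101 peaks lay that near. The same count was not made over all listed peaks with such a score. At the other end, 13 peaks (12.9%) lay more than 100 kb away, the farthest in intron 3 of 39 of Ptprd, 584553 bp from the TSS.

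Position also limits which gene a peak can be credited to. In the RefSeq annotation, 48 of the 101 peaks lay inside the body of the gene they were assigned to. Of the rest, 7 lay inside a different gene and 46 lay outside curated transcripts. The assigned gene was taken by its whole annotated span, and other genes by curated transcripts only. The Iqgap2 peak and the Rps6ka2 peak lay inside their gene by span but outside its curated transcripts. The 7 were the peaks assigned to Cdkn2b (in an intron of the non-coding Gm12610), Gngt2 (in a coding exon of Abi3), Mtg1 (at the end of Paox), Pip4k2c (in Kif5a), Inpp5k (in Pitpna), Akap5 (in Mthfd1) and G6pc3 (in Hdac5). Of the 46 intronic peaks, 15 were in a first intron (32.6%, interval 20.9 to 47.0), against 34.2% of the 605 intronic peaks of the whole list. Of the 46 intergenic peaks, 10 overlapped a RefSeq gene once predicted genes were counted. The intron counted was that of the gene containing the peak.

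Among receptor tyrosine kinases, Flt3 and Kdr were taken by the keywords. Flt3, the receptor for Flt3 ligand on early lymphoid progenitors, had 1 peak in intron 9 of 23 (chr5:147366458-147366664), 33928 bp from the TSS. Its score was 41.9 and its focus ratio 0.846. Kdr, a receptor for vascular endothelial growth factor, had peaks of 26.1 and 15.2. Both lay 97 to 102.3 kb from the end of Kdr, in the interval between Kdr and Kit on chromosome 5. Kit encodes the SCF receptor, and its annotated end lay 173.8 kb and 179.1 kb from these peaks, its start 255.5 kb and 260.8 kb. No listed peak was assigned to Kit, Il7r, Jak1 or Jak3, which also take part in signalling by the cytokines in the culture. A gene without a listed peak had no reproducible peak with a score of 15 or more nearest to it, which does not show that LMO2 was absent.

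Cytoplasmic tyrosine kinases had 3 peaks, all intronic and inside their own gene. The scores of Blk, a Src family kinase of B-lineage cells, and Csk, which phosphorylates the inhibitory tail of Src kinases, were 18.7 and 17.2. The receptor-type and other protein tyrosine phosphatases (Ptprc, Ptpre, Ptprd, Ptprs and Ptp4a3) had 7 peaks, all intronic and inside their own gene. Ptprc, which encodes the leukocyte antigen CD45, had peaks of 18.7 and 15.8 in intron 2 of 28. The highest of the group was Ptprd with 30.2, and the median was 18.3. An ETS word was present in 6 of these 7 windows, against 51.4% of the windows of all listed peaks.

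In the MAP kinase group, 8 genes had 9 peaks with a median score of 21.5, and 7 of the 9 were intergenic. Dusp2, a nuclear phosphatase that switches MAP kinases off, had a score of 43.5, 7521 bp upstream of its TSS. Map2k3, which activates p38, had 36.0 in intron 1 of 11, and Map3k19 32.5 in a coding exon. The remaining peaks ran from 17.0 to 22.5, at Tab2, Mknk2, Ksr1, Rps6ka2 and Map3k8. Ksr1 is a scaffold of the ERK pathway and Mknk2 a kinase of the translation factor eIF4E. The RUNX word was present in 7 of the 9 windows and the ETS word in 3, against 54.9% and 51.4% of the windows of all listed peaks.

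The largest group by peaks was that of phosphoinositide 3-kinase (PI3K) and the enzymes of phosphoinositides, with 9 genes and 14 peaks. It held both sides of the pathway. On the side of the kinase, Pik3r1, the regulatory subunit of PI3K, had scores of 45.6 (33421 bp from the TSS, beyond the end of the gene) and 21.4 (302755 bp upstream), and Pik3ap1, an adaptor of the B-cell receptor, had 15.1 and 15 in intron 2 of 16. On the opposing side, Inpp5d, the phosphatase SHIP1 of blood cells, had 31.4 and 27.7, both in intron 2 of 26 and 10205 bp apart. Pik3ip1, a membrane inhibitor of PI3K, had 19.8. Pip4k2b (20.0), Pip4k2c (19.4) and Pip5k1c (16.9) encode kinases that make phosphatidylinositol bisphosphate. The ETS word was present in 11 of the 14 windows, the RUNX word in 4 and the bHLH word in 3. Over the windows of all listed peaks, the shares were 51.4%, 54.9% and 33.8%. The windows of the group were not compared by a test, and counts this small have wide intervals.

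Protein kinase C genes had 4 intronic peaks, at Prkca (60.8 and 17.6), Prkcz (20.0) and Prkch (15). The calcium and cAMP genes had the lowest median score of all groups with more than 1 gene, 16.5, although Camk2b is among them. Their other peaks were at Camk1d (21.4), Camkk1 (16.1), Akap13 (17.6 and 15.6), Akap5 (16.5) and Akap11 (15). The Akap proteins are anchors of protein kinase A, not kinases.

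Cell cycle genes had 6 peaks, none inside the gene they were assigned to. Of these genes, Cdkn2b, Cks2 and Cdkn1a were 4.7 to 9.7 kb long, and Cdk17 and Cdk6 were 90.2 and 190.0 kb. The part of gene length was not tested here either. Cdkn2b had 71.9, 58255 bp upstream, and Cdkn1a 35.1, 10872 bp beyond the end of the gene. Both encode inhibitors of cyclin-dependent kinases. Cdk6, a kinase of the passage from G1 to S phase, had 21.7 at 70573 bp upstream, and Cdk17 had 19.1 at 36452 bp upstream. Among the other serine/threonine kinases and adaptors, 10 genes had 13 peaks with a median of 22.6. Stk17b, a kinase known from T-cell activation and survival, had 45.6 at 6359 bp upstream, Sik1 had its 3 peaks, Jakmip1, a binding partner of JAK kinases, had 42.0 in intron 1 of 12, and Mob3a, a kinase-associated protein, had 30.9. Trib2, a pseudokinase, had 22.6 at 191628 bp upstream.

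Heterotrimeric G proteins and the receptor kinase Grk2 had 6 peaks with a median score of 24.3. Gna15 had 65.3 in intron 1 of 6, 4463 bp from the TSS. The gamma subunit gene Gng2 had 41.2 and 15, upstream and 1639 bp apart. Gnai2, the inhibitory alpha subunit used by chemokine receptors, had 21.1 and one of the highest focus ratios, as given above. Grk2, which turns off activated receptors, had 15.4.

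The regulators of small GTPases had 8 genes and 10 peaks, with a median of 19.05. Rapgef3, a cAMP-activated exchange factor for Rap proteins, had the highest score, 41.9, in intron 18 of 27. Iqgap2 followed with 29.2 and Arhgap25, a Rac GTPase-activating protein of blood cells, with 25.3. The remaining scores ran from 15.6 to 19.9, including Arhgap24 (19.9 and 18.7), Rabgap1l (19.4), Rap1gap2 (18.4), Iqgap1 (18 and 15.6) and Arhgap17 (17.4). The other GTPases (Gimap6, Irgc1, Mtg1 and Atl2) had scores from 17.6 to 23.6, and the RUNX and bHLH words were in none of their 4 windows. Serine/threonine phosphatases and their subunits had 5 peaks from 15.2 to 45.6, led by Ppp1r18, a phosphatase 1 subunit that binds actin. The metabolic enzymes had 9 peaks with a median of 21.5, and the RUNX word was present in 8 of these 9 windows. Over the windows of all listed peaks, the RUNX word was present in 54.9% and the bHLH word in 33.8%. Word counts are given for groups where they stood out, and the groups were made by hand. In others, such as the heterotrimeric G proteins (each word in 3 of 6 windows), they were nearer these shares. Differences between groups were not tested.

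Keywords catch only those genes whose description states the enzyme class. To see what they missed, 20 signalling gene families were listed by symbol and counted in the RefSeq annotation. Of all 21774 protein-coding genes, 979 had at least 1 listed peak (4.5%). The share was larger than this in 15 of the 20 lists and smaller in 5. It was 18.2% in the PI3K and AKT pathway (8 of 44 genes), 16.0% among Src, Syk and Tec family kinases (4 of 25), 14% among protein tyrosine phosphatases (6 of 43) and 12.9% among Ras and Rap switches (9 of 70). It was 9.52% in the MAP kinase cascade (6 of 63). None of the 4 JAK kinases and none of the 15 NF-kappaB and innate kinases had a listed peak. With lists this short, 1 gene moves the share by several percentage points. The lists were also not matched for gene length. When all genes were split into 4 bins by length, the share was 2.59% in the shortest bin and 6.93% in the longest. Whether any list differs from genes of like length was not tested.

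**Figure D4:**
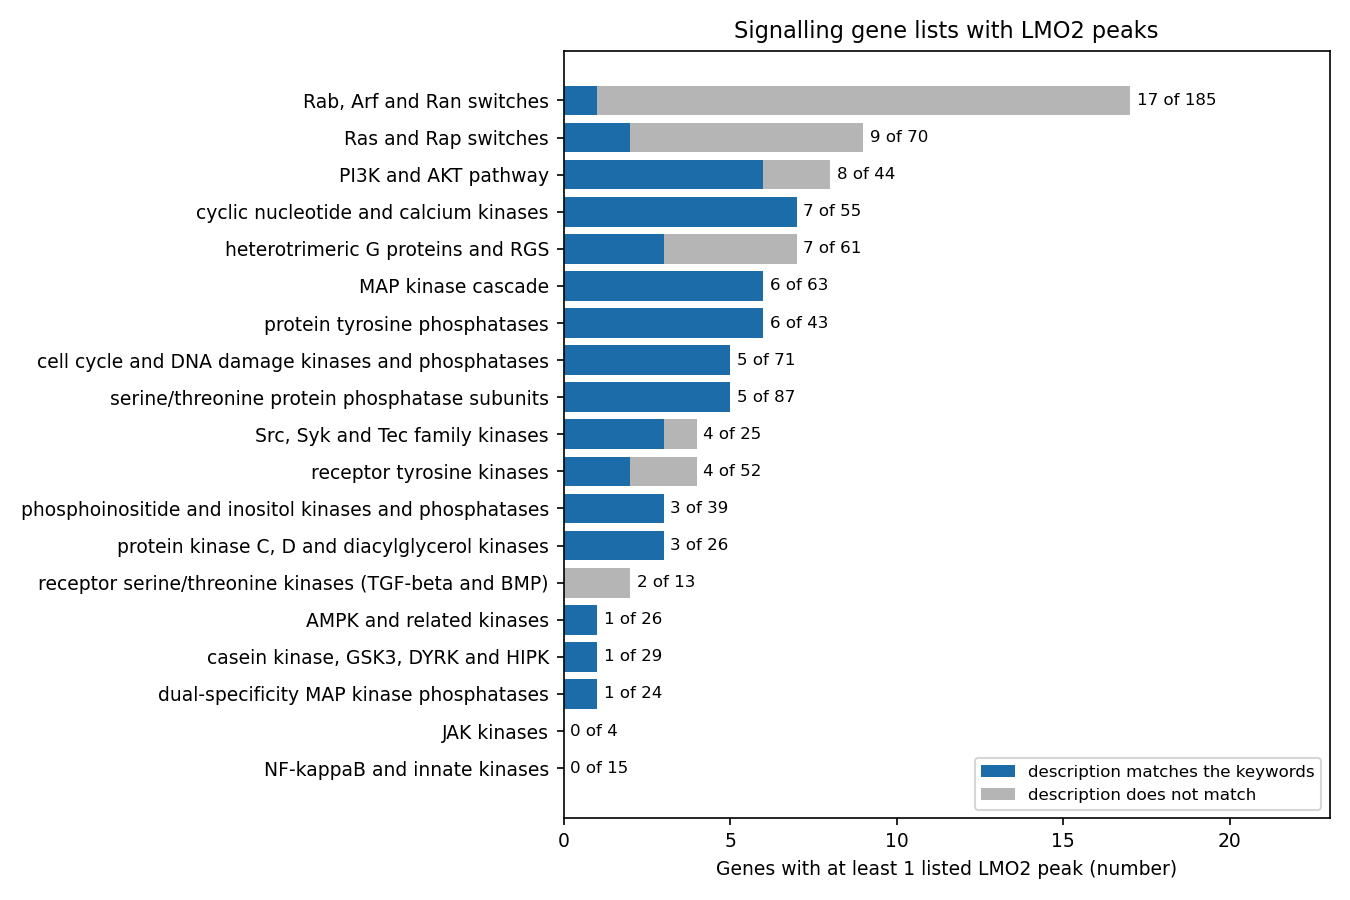
Number of genes with at least 1 listed LMO2 peak (horizontal axis) in 19 of the 20 signalling gene lists (vertical axis), split into genes whose description matches the keywords (blue) and those whose description does not (grey). Labels give the number with a peak and the number of genes in the list: most Rab and Ras family genes with a peak (grey) lie outside the 82 genes, as do both genes of the receptor serine/threonine kinase list and 2 of the 4 receptor tyrosine kinases.

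Through these lists, 50 further genes with 59 peaks were found that the keywords had not taken. Most belonged to the small GTPase families, where the description names the family and not the word GTPase. Of 17 Rab, Arf and Ran genes with a peak, only Rabgap1l was among the 82, and the others included Rin3 (39.3) and Rab7b (37.5). Of 9 Ras and Rap genes with a peak, 2 were among the 82, and Sipa1l1, a Rap GTPase-activating protein, reached 75.8. Receptor and Src family kinases were missed as well, among them Csf1r (21.4), Pdgfrb (36.2), Fyn (24.4) and Tgfbr1 (22.6 and 18.9). These genes were picked from the list for their names after their values were seen.

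When the same keywords were applied to the descriptions of all protein-coding genes in RefSeq, 84 of 1169 matching genes had a listed peak (7.19%, interval 5.84 to 8.81), against 4.5% of all protein-coding genes. The matching genes were longer, with a median length of 38 kb against 17.2 kb. When all genes were split by length into 4 bins of equal number, the share in the longest bin (over 44.5 kb) was 8.26% (44 of 533) for genes matching the keywords and 6.93% over all genes. In the shortest bin the shares were 6.45% (6 of 93) and 2.59%. No test was made of these shares.

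In windows of 200 bp at the peak centre, the RUNX word was present in 55 of the 101 (54.5%, interval 44.8 to 63.8), the ETS word in 57 (56.4%, interval 46.7 to 65.7) and the bHLH word in 34 (33.7%, interval 25.2 to 43.3). In all 1584 windows of peaks on assembled chromosomes, the shares were 54.9%, 51.4% and 33.8%. In 202 windows 1 kb to either side of the same peaks, they were 13.4% (interval 9.35 to 18.7), 24.3% (interval 18.9 to 30.6) and 8.91% (interval 5.71 to 13.6). In 200 bp windows of 32851 promoter sequences in RefSeq they were 11.2%, 24.7% and 10.9%. Thus the words were more common at the peaks than beside them, and about as common as at the rest of the list. The paper had reported RUNX, ETS and bHLH motifs as the most enriched in this same list. A higher share at the peaks than beside them was therefore known beforehand and is not separate support.

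**Figure D5:**
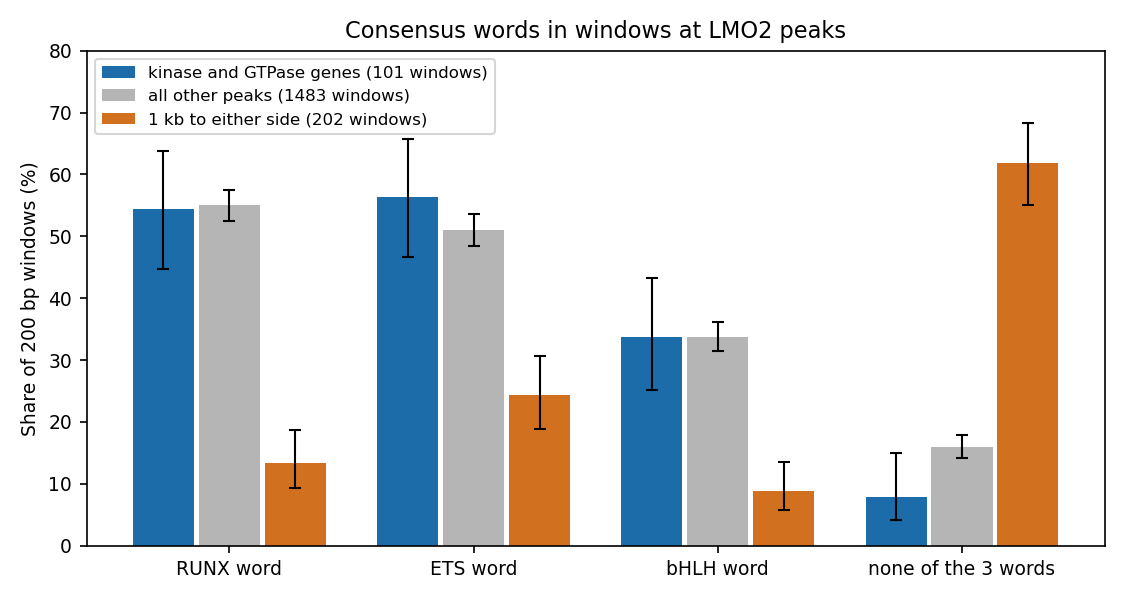
Share of 200 bp windows (vertical axis, %) with the RUNX, ETS or bHLH word, or with none of them, at the 101 peaks of kinase and GTPase genes (blue), at the other 1483 peaks (grey) and 1 kb to either side of the 101 peaks (orange). Error bars are Wilson 95% intervals: blue and grey overlap for each word, and the orange bars are lower, for example 13.4% against 54.5% for RUNX.

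The words were combined in different ways. RUNX and ETS without bHLH were found in 21 windows, ETS alone in 20, RUNX alone in 18, RUNX and bHLH in 10, ETS and bHLH in 10, bHLH alone in 8, and all of them in 6. The 6 windows with all of them belonged to Stk17b, Iqgap2, Rabgap1l, Camkk1, Ppm1m and Vrk1. RUNX and ETS, with or without bHLH, were found together in 26.7% of the windows, against 28.5% of the windows of all listed peaks. All the words were found in 5.94% against 8.78%, and bHLH alone in 7.92% against 6.76%. These combinations were thus near those of the whole list. No word was found in 8 windows (7.92%, interval 4.07 to 14.9), against 237 of the other 1483 (16.0%, interval 14.2 to 17.9) and 125 of the 202 windows to either side (61.9%). These 8 were the peaks of Cdkn1a, Mtg1, Irgc1, Atl2, Akap5 and Pip4k2c and 1 peak each of Kdr and Iqgap1. A window without a word holds none of these exact words and may still hold another form of a site or a weaker one.

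Words and scores did not go together in a simple way. The median score was 20.0 in windows with the RUNX word and 19.0 in those without, 19.1 and 20.0 for ETS, and 19.65 and 19.8 for bHLH, and the ranges overlapped throughout. The words AGATAA and TGATAA, the core of sites for GATA factors, were present in 13 windows (12.9%, interval 7.68 to 20.8), against 255 of 1584 (16.1%), among them those of Camk2b, Gna15, Ppa2 and Dusp2. Word sites lay a median of 44 bp (RUNX), 41 bp (ETS) and 44.5 bp (bHLH) from the peak centre, where an even spread over the window would give about 50 bp. Over all listed peaks these medians were 40 bp, 43 bp and 37.5 bp.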

How the data were processed

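LMO2 ChIP-seq peaks of pro-B(+) cells were analysed from the list of reproducible peaks that the authors deposited. The authors aligned reads with Bowtie 1.1.1, called peaks against input with HOMER, retained peaks reproducible by IDR and annotated them with mm10, taken here as GRCm38. The labels state reads of 50 nt, and the methods another length. The deposited peak score is HOMER's normalized score, whose scaling is not given in the sources used here, and the deposited focus ratio is a fraction. The Bowtie settings limited how many places a read could match, but how HOMER counted reads retained at several places is not given.

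Peaks were selected by keywords, and the keywords, gene lists, roles and named genes were chosen with earlier results of these data known. Named genes are those of the 10 highest scores, those with 2 or more peaks, those of the 10 peaks nearest a TSS, the strongest of each signalling list, and Kit, Flt3, Jak1 and Jak3. Roles were assigned by hand, and other genes named by role, after the values were seen. A listed distance fell within 10 bp of one to a RefSeq TSS for 92 of 101 peaks. Windows of 200 bp were searched for words on both strands, a search tested on simulated data. Medians have exact order-statistic intervals and shares have Wilson 95% intervals (Python 3.11.15, SciPy 1.17.1, pandas 2.3.3). Repeated sequence was counted from 50 bp words in the primary assembly. No per-sample values are in the list, and no test was run. Results for some genes and 1 gene list are not reported here.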

Additional observations from a re-analysis of the deposited data

How the results depend on the processing

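Of 84 values recomputed under other settings, 72 stayed within the interval of the reported value (or, for counts, within 1.5 times of it) and 12 moved. With a minimum peak score of 30 there were 24 peaks at 24 genes and 0 genes with 2 or more peaks. The median score of these 24 was 41.95 and the median focus ratio 0.8295, with 58.3% in introns and 0% within 1 kb of a TSS. The same values were not taken over the 342 listed peaks with such a score. In 100 bp windows the shares were 35.6% (RUNX), 37.6% (ETS) and 16.8% (bHLH), against 37.8%, 33.3% and 21.7% of all windows. With wider words the shares were 84.2% (ETS) and 57.4% (bHLH), against 76.8% and 52.8% of all windows. A higher minimum score leaves fewer peaks and raises the median score by construction. Shorter windows hold fewer words and wider words match more often by construction. Leaving out the exclusion words or counting identical sequences once changed no peak, so the 11 values under each of these settings could not move. They are among the 72, and most other settings kept most of the same peaks. The 72 is therefore not a measure of robustness. Without descriptions such as inhibitor or anchor, 84 peaks at 67 genes remained. Leaving out peaks in repeated sequence (98 left) and the GATA words were chosen after seeing the data. No paired analysis was possible because each peak has only 1 score for both ChIP samples, and no replicate could be left out for the same reason. The list holds no read counts, so a gene without a peak may lie below detection.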
